A study of Mus musculus with 2 samples.

Results

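N6-methyladenosine (m6A) sites called in the coding sequence of long internal exons were examined in mouse brain. A site was included when its 5-mer in the GRCm38 genome was DRACH (with any base but C first, a purine second, the methylated A in the middle, then C, and any base but G last), and when it lay in the coding sequence of an exon of 400 nt or longer that was neither the first nor the last exon of its transcript. The transcript was the longest GENCODE M21 protein-coding transcript, with a complete coding sequence and both untranslated regions, that covered the site on the same strand. By this rule 13742 sites were found among the 219409 sites listed in either library, which is 6.26% of all sites and 41.2% of the 33372 DRACH sites in coding sequence. They lay in 2182 exons of 1744 genes. The same exons held 36915 further DRACH adenosines that neither library listed, here called uncalled, and these served as the comparison.

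Both libraries came from GLORI, an assay in which glyoxal and nitrite convert unmethylated adenosine to inosine, so that an A still read as A marks m6A at single-base resolution. The assay was run on RNA from the cerebellum and the cerebrum of a female mouse at P0, according to the study's methods. The text of these methods describes poly(A)+ and ribo-depleted RNA and does not say which was used for GLORI. The animal came from the F1r cross and had a C57BL/6J (C57) mother and a PWK/PhJ (PWK) father. Both groups shared age, sex and cross, and differed in tissue. Each tissue had 1 library and no replicate, so every comparison below is a description with counting intervals and no test of significance.

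The deposited files list positions and give neither methylation rates nor read counts, so the depth of each library is unknown. An adenosine missing from a file may be unmethylated, methylated at a rate no higher than the authors' minimum, unexpressed or too thinly covered. The name of the cerebrum file carries the study's abbreviation for cerebellum, whereas the sample's label gives cerebrum, so the labels were checked against tissue markers. Of 10 cerebellar genes (among them En1, En2, Barhl1 and Cbln1), 6 carried a site in the cerebellum library and 2 in the cerebrum library, while Atoh1, Lmx1a, Pcp2 and Ptf1a carried none in either. Of 14 forebrain genes (among them Emx1 and Tbr1), 5 carried a site in the cerebellum library and 14 in the cerebrum library. Although both samples are labelled female, 14 cerebellum sites and 30 cerebrum sites lay on chromosome Y, of which 11 were shared. None of the sites studied here was on chromosome Y.

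m6A is deposited on nuclear pre-mRNA by the METTL3-METTL14 methyltransferase, which prefers the DRACH sequence. Most DRACH adenosines in the transcriptome are nevertheless unmethylated. The mark is known to be dense around stop codons, in 3′ UTRs and in unusually long internal exons, and sparse in internal exons of ordinary length. Exon junction complexes, which are placed just upstream of exon-exon junctions during splicing, are known to keep the methyltransferase away from nearby RNA. The exon ends described here are the places where such junctions form.

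To show what these sites look like, the site farthest from both ends is printed for each of the 6 exons with the most sites. Each line gives 25 nt of spliced RNA written as DNA, 5′ to 3′, with the DRACH 5-mer in capitals. The GRCm38 coordinate is that of the methylated A.
Map1a, exon 5 of 7, 4044 nt from the exon's 5′ end, chr2:121303312-121303312, plus strand: gggccctggtGGACActttatgaca
Son, exon 3 of 12, 3336 nt from the 5′ end, chr16:91657946-91657946, plus strand: tctacagaggTGACAttatctactg
Srrm2, exon 11 of 15, 3284 nt from the 5′ end, chr17:23818405-23818405, plus strand: gaagtgaatgTGACTcttctccaga
Fat4, exon 9 of 17, 2187 nt from the 5′ end, chr3:38981837-38981837, plus strand: gccccaagtgGGACCactgttatcc
Ptprz1, exon 12 of 30, 1780 nt from the 5′ end, chr6:23000979-23000979, plus strand: gatgggctgaGAACTcttaacattt
Vcan, exon 8 of 15, 2625 nt from the 5′ end, chr13:89690877-89690877, minus strand: actgctttagTGACTgaatctggag
The sites in Map1a, Son, Srrm2 and Ptprz1 were listed in both libraries. Those in Fat4 and Vcan were listed in the cerebrum library only.

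At the other extreme, the 5 sites nearest to an exon end among those listed in both libraries are printed in the same way. They are the exceptions to the distribution described next.
Hif1a, exon 12 of 15, 2 nt from the 5′ end, chr12:73941962-73941962, plus strand: tttcaactcaGGACActgatttaga
Sp4, exon 3 of 6, 2 nt from the 5′ end, chr12:118300191-118300191, minus strand: caggctcccaGGACTctcagccctc
Nlgn1, exon 7 of 8, 2 nt from the 5′ end, chr3:25436641-25436641, minus strand: ttcaaccaaaGGACTttttcaacga
Mphosph8, exon 3 of 14, 3 nt from the 5′ end, chr14:56673893-56673893, plus strand: agatattcagAGACTatctttaaac
Nlgn2, exon 7 of 8, 5 nt from the 3′ end, chr11:69826748-69826748, minus strand: aacttcgccaAGACTggtgacccca
Hif1a encodes the oxygen-regulated transcription factor HIF-1α, Sp4 a neuronal zinc finger factor, Nlgn1 and Nlgn2 postsynaptic neuroligins, and Mphosph8 a chromodomain protein of heterochromatin. For the first 3 of these sites the genomic 5-mer reads into the intron, and the spliced 5-mer was DRACH as well. In all, 7 sites lay 1 or 2 nt from an exon end, all at 5′ ends, and all 7 were DRACH in the spliced transcript. The rule read the 5-mer from the genome. It therefore admits no adenosine 1 or 2 nt from a 3′ end where the intron begins with G. The lack of sites there follows from the rule and does not compare the ends.

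Called sites were depleted towards both ends of the exons. Within 100 nt of the nearer end lay 9.43% of the called sites (1296 of 13742, 95% Wilson interval 8.95 to 9.93%) against 20.3% of the uncalled DRACH adenosines of the same exons. The ratio of these shares was 0.464 (95% interval 0.439 to 0.491). When the called sites of each exon were spread evenly over its DRACH adenosines, 2356 sites were expected within 100 nt of an end, so the observed number was 0.550 of that. The ratio was 0.462 (0.428 to 0.499) in the cerebellum library and 0.456 (0.431 to 0.484) in the cerebrum library. These intervals cover counting error only, and adenosines of 1 exon are not independent of each other.

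The ratio was below 1 on all 19 autosomes in the united set, where it ranged from 0.328 to 0.781. It was also below 1 on all 19 in each library, with a range of 0.289 to 0.890 for cerebellum sites and of 0.307 to 0.759 for cerebrum sites. The highest value of each set came from chromosome 19, whose 3 intervals each reached above 1.

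**Figure D1:**
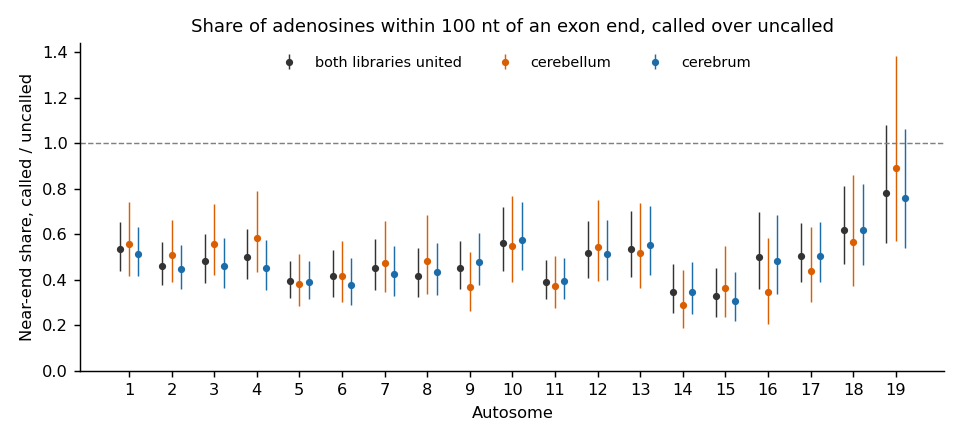
Near-end ratio on each autosome. The vertical axis is the share of called DRACH adenosines within 100 nt of an exon end divided by the same share of uncalled ones in the same exons, points are ratios, bars are 95% intervals for counting error, colours mark the united set and each library, and the dashed line is a ratio of 1. All 57 points lie below the line, and the intervals of chromosome 19 cross it.

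The share of DRACH adenosines that was called rose with distance from the nearer end. It was 5.80% at 1 to 10 nt (47 of 810), 6.81% at 11 to 25 nt, 10.3% at 26 to 50 nt, 18.9% at 51 to 75 nt and 23.2% at 76 to 100 nt. It then reached 29.4% over 100 and up to 150 nt, 31.6% up to 200 nt and 33.8% (32.8 to 34.9%) up to 300 nt. The steepest step of this rise was thus that from 26 to 50 nt to 51 to 75 nt from the end. Farther inside the share declined, to 31.5% up to 500 nt, 28.1% up to 1000 nt and 23.9% beyond 1000 nt, which only exons over 2000 nt can contribute to. Set against the called share of the very exons that contribute to each bin, observed over expected sites were 0.219 at 1 to 10 nt, 1.195 over 200 and up to 300 nt and 0.977 beyond 1000 nt. The decline in the deep interior was therefore smaller once each exon was compared with itself.

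Both ends showed the depletion. Within 25 nt of the 5′ end 5.10% of DRACH adenosines were called (52 sites), and within 25 nt of the 3′ end 7.64% were called (86 sites). Within 100 nt the shares were 15.1% and 14.5%, against 28.2% and 28.4% farther away. Both libraries showed a like course at different heights. In the cerebellum library the called share rose from 3.32% at 1 to 10 nt to 24.1% over 200 and up to 300 nt, and in the cerebrum library from 4.91% to 32.7%.

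**Figure D2:**
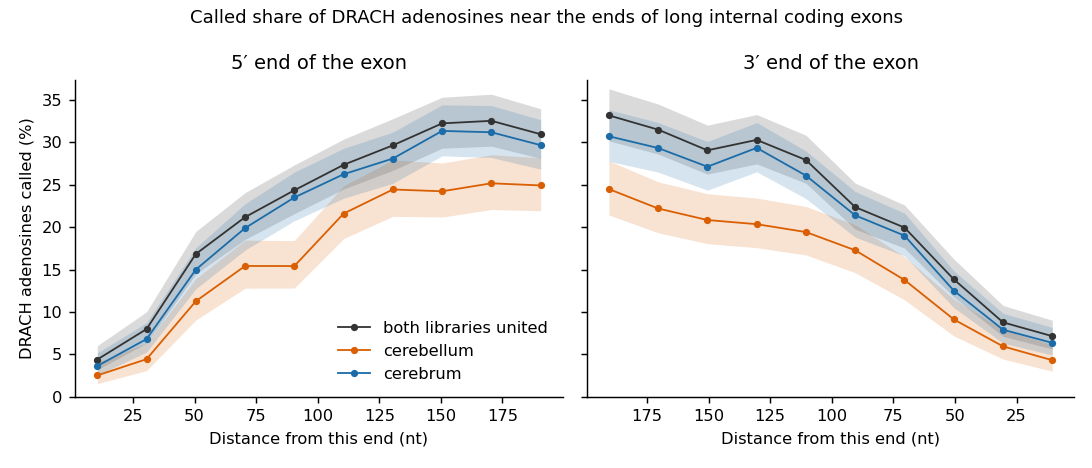
Called share of DRACH adenosines by distance from the 5′ end (left) and the 3′ end (right) of long internal coding exons, in 20-nt bins. The vertical axis is the percentage of DRACH adenosines that was called, lines are the united set and each library, and bands are 95% Wilson intervals. In the united set the first bin at the 5′ end is at 4.40%, and both panels climb to about 30%.

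Some of the calls nearest to the ends lay in exons whose ends differ between annotated transcripts. Only protein-coding transcripts with a complete coding sequence and both untranslated regions were compared for this, and other kinds of transcript were not checked. In the 1888 exons that were internal with the same ends in every such covering transcript, 6.00% (5.01 to 7.16%) of DRACH adenosines within 25 nt of an end were called. In the other 294 exons the share was 9.54% (6.55 to 13.7%), an interval that overlaps the first. Over 200 nt from the ends the shares were 29.4% and 30.3%.

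Across whole exons, called DRACH adenosines made up 27.1% (26.7 to 27.5%) of the 50657 DRACH adenosines of exons with at least 1 called site. The background over exons of all kinds in coding transcripts, under the same condition, was 15.1% in the united set. In the cerebellum library the share was 19.3% against a background of 10.3%, and in the cerebrum library 25.8% against 14.2%. Under this condition the coding part of last exons had 29.3%, the 3′ UTR of last exons 12.2% and short internal coding exons (under 400 nt) 24.2%. An exon enters that last class only through a called site and holds a median of 5 DRACH adenosines, against 16 in a long exon, so the condition itself raises the share of short exons. Under the same condition short exons were above long ones in the cerebellum library, with 21.2% (20.2 to 22.2%) against 19.3% (18.9 to 19.7%). In the cerebrum library short exons were below, with 23.9% against 25.8%.

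A comparison free of this condition was made after the data were seen, on every exon, with or without a call, of transcripts that carried a called site in the 3′ UTR of their last exon. In 1658 such transcripts with both kinds of internal exon, 25.2% (24.8 to 25.6%) of DRACH adenosines were called in long internal exons and 1.56% (1.46 to 1.65%) in short ones. The coding part of their last exons had 24.2% (23.4 to 25.1%) and their first exons 6.53%. The long exons were higher than the short exons of the same transcript in 921 of the 1090 transcripts with 10 or more DRACH adenosines in each, equal in 143 and lower in 26. In the cerebellum library long exons were higher in 669 of 850 transcripts and lower in 15, and in the cerebrum library in 902 of 1068 and lower in 27.

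The last exon, which has a junction at its 5′ end only, gave a like picture on its coding part. Within 100 nt of the last junction 11.97% of its DRACH adenosines were called (10.9 to 13.1%), close to the 12.4% (11.7 to 13.1%) within 100 nt of the ends of long internal exons in the same transcripts. Beyond 100 nt the shares were 29.5% (28.5 to 30.5%) and 28.2% (27.7 to 28.7%).

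The called share rose steeply with exon length in transcripts with a called 3′ UTR site. It was 0.413% in internal coding exons under 100 nt, 0.678% at 100 to 199 nt, 2.92% at 200 to 299 nt and 10.3% at 300 to 399 nt. It was 19.2% at 400 to 599 nt, 24.9% at 600 to 999 nt, 28.2% at 1000 to 1999 nt and 26.5% at 2000 nt or more. The classes just below and just above the 400-nt threshold lay between the extremes. The rise was also present among adenosines over 100 nt from both ends, with 5.58% at 200 to 299 nt, 15.3% at 300 to 399 nt, 24.5% at 400 to 599 nt and 30.5% at 1000 to 1999 nt. The rise with length was thus not limited to adenosines near an end.

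**Figure D3:**
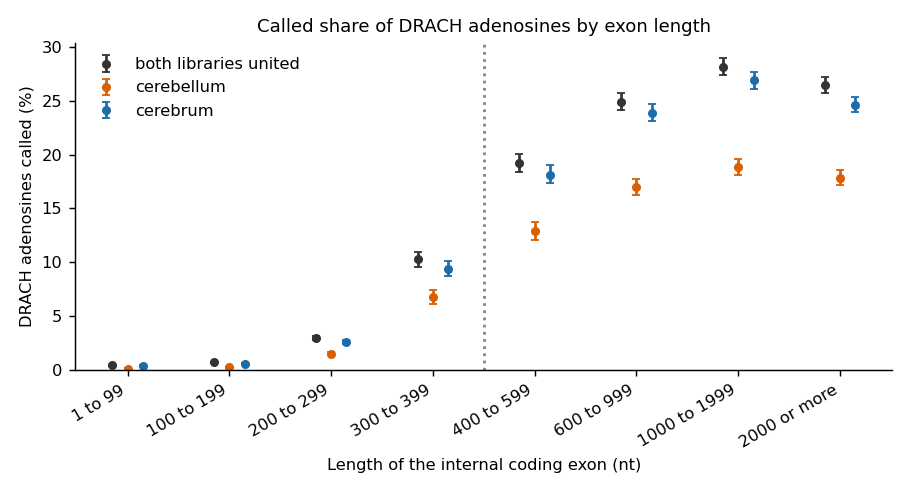
Called share of DRACH adenosines in internal coding exons by exon length, in transcripts with a called site in the 3′ UTR of the last exon. The vertical axis is the percentage of DRACH adenosines called, points are the united set and each library, bars are 95% Wilson intervals, and the dotted line marks 400 nt, the threshold of the long exons. The united share goes from 0.413% under 100 nt to 28.2% at 1000 to 1999 nt.

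Within long exons divided into 10 equal parts, the called share was lowest in an end part and varied among the inner parts. In exons of 400 to 999 nt, divided into 10 equal parts, the first and the last part had 11.7% and 10.99% of their DRACH adenosines called, the part before the last had 23.2%, and the other parts had between 27.9% and 36.7%. In exons of 2000 nt or more, where each part spans at least 200 nt, the first part had 20.8% and the other parts between 23.3% and 29.7%. Position along the coding sequence mattered less than position in the exon. Over 100 nt from both exon ends with the coding sequence divided into 5 equal parts, the called share was 32.4% in the first part and between 28.6% and 30.01% in the remaining parts.

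The sequence around the adenosine separated called from uncalled sites strongly. GAACT was called in 55.9% of its 2692 occurrences and GGACT in 54.9% of 2744, followed by TGACT (50.6%) and AGACT (49.3%). At the low end AAACC was called in 2.29% of 2964 occurrences and TAACC in 1.55% of 971. GGACT made up 10.96% of called sites and 3.35% of uncalled DRACH adenosines, a ratio of 3.27 (3.04 to 3.51). The base that followed the central AC separated the groups most, since DRACH adenosines with T there were called in 49.3% of cases, with A in 21.2% and with C in 14.1%.

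Bases outside the 5-mer differed as well. At the position just after the 5-mer, A was found in 16.4% of called and 27.9% of uncalled sites. At the next position T was found in 36.3% and 18.5%. On the upstream side, the base 4 nt before the methylated A was A in 38.4% of called and 26.1% of uncalled sites, and G in 18.3% and 30.3%. G was less frequent in called sites at each of the 16 flanking positions examined, from 10 nt upstream to 10 nt downstream. Just after the 5-mer the difference was small, with 24.7% and 25.4% and overlapping intervals.

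All 18 DRACH 5-mers were called less often within 100 nt of an end than farther inside. The size of the drop differed between them. GGACT went from 57.2% inside to 44.7% near an end (225 of 503), GAACT from 59.4% to 38.8%, AGACT from 54.0% to 27.3% and TGACT from 55.5% to 23.4%. The less preferred GAACC went from 19.1% to 5.44%, and TAACC from 1.82% to 0 of 148. When uncalled adenosines were weighted to the 5-mers of the called sites the near-end ratio was 0.422, against 0.464 without weights.

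The reading frame showed small differences. The A was the first base of a codon in 27.4% of called sites, the second in 47.4% and the third in 25.2%. The share over that of uncalled DRACH adenosines was 0.911 (0.883 to 0.940) at the first base, 1.013 (0.993 to 1.03) at the second and 1.09 (1.05 to 1.13) at the third. The first base was thus less frequent and the third more frequent in called sites, beyond counting error. After the 5-mers were taken into account, observed over expected numbers of sites were 0.958, 1.021 and 1.008 for the first, the second and the third base. Some single 5-mers departed further, such as GAACT at the second base with a ratio of 1.26 (1.12 to 1.42) and GGACC at the third with 1.26 (1.13 to 1.41).

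Predicted RNA structure and base composition differed modestly. Among adenosines over 50 nt from both ends, the mean probability that the A was unpaired, from partition function folding of a window with 50 nt on each side, was 0.601 in called and 0.683 in uncalled sites. The difference was -0.0817 (SE 0.00375 over adenosines), so called sites were predicted to be paired more often. With each exon's mean subtracted it was -0.0688, and with 5-mer weights -0.0457. Within single 5-mers it was -0.0468 for GGACT and -0.0627 for GAACT, and for AAACC 0.00865 with an interval from -0.0518 to 0.0691 that includes 0. The GC content of the window was 49.5% in called and 51.01% in uncalled sites. The called share fell from 34.7% where GC was 40% or less to 22.6% where it was above 60%.

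Pooled over all exons, called sites had another called site nearby more often than uncalled DRACH adenosines did. Another called site was found within 50 nt of 56.4% of called sites, but of only 33.7% of uncalled DRACH adenosines. For neighbouring DRACH adenosines 4 to 10 nt apart, and with the downstream one over 100 nt from both ends, the downstream one was called in 45.1% of 1926 pairs with a called upstream neighbour and in 23.4% of 4667 pairs with an uncalled one. At gaps over 100 nt the shares were still 38.9% and 27.5%. The difference was thus larger at short gaps and did not vanish at long ones. Exons differ in their called share, and no expectation within exons was computed for these values. The part of such differences between exons was not tested.

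Exons varied widely in how many of their DRACH adenosines were called. The median exon had 4 called sites, 418 exons had 1, and 412 exons had 10 or more and held 7367 of the sites. Among the 848 exons with 20 or more DRACH adenosines, the called share ran from 0.503% to 73.0%, with quartiles at 13.6%, 25.8% and 39.2%.

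The exons with the most sites belonged to several kinds of genes. Exon 5 of Map1a, which encodes a neuronal microtubule-associated protein, had the most with 69 of its 198 DRACH adenosines called over 8104 nt. It was followed by exon 3 of Son (65 sites) and exon 11 of Srrm2 (60 sites), which encode scaffold proteins of nuclear speckles. Next came exon 9 of Fat4 (56 sites), exon 12 of Ptprz1 (54 sites), exon 8 of Vcan (54 sites) and exon 2 of Fat3 (53 sites). Fat4 and Fat3 are giant cadherins, Ptprz1 is a receptor tyrosine phosphatase of glia and their progenitors, and Vcan is the extracellular matrix proteoglycan versican. The remaining exons among the first 12 were those of the zinc finger genes Zfp462 (50 sites) and Hivep1 (48 sites), the protocadherin gene Pcdh9 (49 sites), the transcriptional co-regulator gene Tcf20 (49 sites) and the GTPase-activating protein gene Arhgap35 (47 sites).

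**Figure D4:**
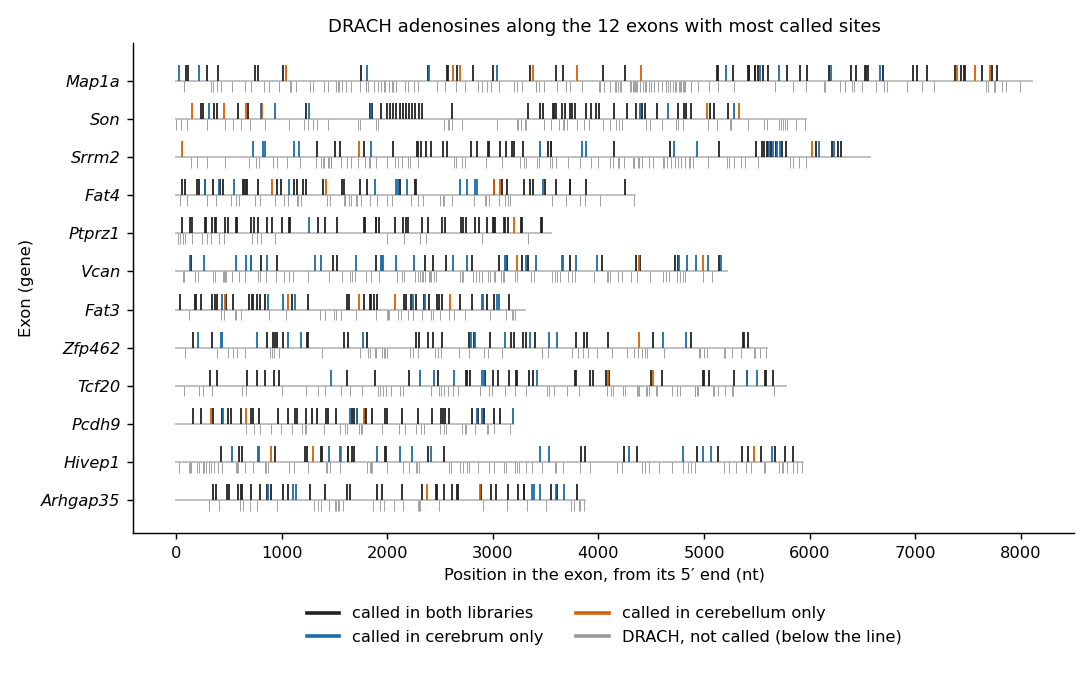
DRACH adenosines along the 12 exons with the most called sites, drawn to scale. The horizontal axis is the position from the exon's 5′ end in nt, ticks above each line are called sites coloured by library, and ticks below are uncalled DRACH adenosines. Ptprz1 has few uncalled ticks (54 of 74 called), and Son has a run of evenly spaced ticks from 1996 to 2326 nt.

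The map of Son showed a run that was picked out after the sites were plotted. From 1996 to 2326 nt of the exon (chr16:91656606-91656936), 12 GGACT adenosines followed each other at a spacing of 30 nt, and all 12 were listed in both libraries. All 15 GGACT adenosines of the exon were called. Each of the 12 had its A as the second base of a codon, and the 25-nt sequences around them took 6 forms, printed here from the genome with the 5-mer in capitals.
Son, at 1996 nt: ccaataccatGGACTcccagatgtt
Son, at 2026, 2056 and 2086 nt: ctagcaccatGGACTcccagatgtt
Son, at 2116 and 2146 nt: ctagctctatGGACTcccagatgtt
Son, at 2176, 2206, 2266 and 2296 nt: ccagcagtatGGACTcccagatgtt
Son, at 2236 nt: ccagctccatGGACTcccagatgtt
Son, at 2326 nt: ccagttccatGGACTcccagatgtt
Because several of these windows are identical, reads from 1 copy may have been placed on another, and the calls of the run are not 12 independent observations.

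The highest called share among exons with 20 or more DRACH adenosines was also that of Ptprz1, at 73.0% (54 of 74), with 52 of the 54 sites in both libraries. It was followed by exon 2 of the uncharacterised gene D630045J12Rik (34 of 47), exon 3 of the synaptic adhesion gene Lrfn5 (20 of 28), exon 10 of the cullin regulator gene Cand1 (18 of 26), exon 2 of Zfp638 (18 of 26) and exon 2 of the deubiquitinase gene Zranb1 (15 of 22). Their intervals overlapped, so their order is not resolved at these numbers.

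Some very long exons had hardly any site. Exon 2 of Cmya5, a gene of striated muscle, had 1 of 199 DRACH adenosines called, and exon 3 of the Naca transcript, which belongs to its muscle form, 1 of 108. Exon 13 of the centromere gene Cenpf had 1 of 84, exon 2 of the guanine nucleotide exchange factor gene Arhgef5 1 of 82, and exon 3 of BC067074 and exon 2 of Arhgef4 1 of 79 each. The longest exon with a site, exon 22 of the kinesin gene Stard9 with 9837 nt, had 13 of 228. Other exons among the 5 longest had more sites. Exon 10 of Unc13b, a synaptic vesicle priming gene, had 26 of 226, exon 12 of the transcriptional repressor gene Spen 37 of 179, and exon 5 of Map1a 69 of 198. Expression of these exons was not measured here, and its part in the low counts was not tested.

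Called shares also differed between groups of genes. They are set beside the values over all genes: 1744 of the 3531 genes with a long internal exon had a site in one (49.4%), 27.1% of DRACH adenosines were called in exons with a site, and 1032 of those 2182 exons (47.3%) lay above this overall share. Over all long exons, with or without a site, 15.95% of DRACH adenosines were called. These exons held 86137 DRACH adenosines in the 3531 genes, which were not filtered for expression. In the lists below they held 1734 in 22 chromatin genes, 1654 in 19 zinc finger and homeobox genes, 1779 in 15 scaffold genes and 1492 in 13 genome maintenance genes. A listed gene thus offered more adenosines on average, which by itself raises the share of genes with a site. In 22 genes of chromatin and histone methylation, all 22 had a called long exon, and 571 of 1660 DRACH adenosines were called, or 34.4% (32.2 to 36.7%). Of their 46 exons with a site, 33 were above the overall share (71.7%), and over all their long exons 32.9% of DRACH adenosines were called. Exon 3 of Ash1l and exon 27 of Kmt2a, both encoding histone methyltransferases, had 42 sites each, exon 3 of Setd2 had 39 and exon 5 of Nsd1 had 37 of 73.

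In the zinc finger and homeobox factors, 17 of the 19 genes with a long internal exon had a site (89.5%), and 31.4% (29.1 to 33.7%) of DRACH adenosines were called. In the neuronal cytoskeleton and active zone scaffolds, 14 of 15 genes (93.3%) had a site. In their exons with a site 25.3% (23.3 to 27.4%) of DRACH adenosines were called. Besides Map1a these included exon 5 of Pclo (41 sites) and exon 5 of Bsn (35 sites), which build the presynaptic active zone, and exon 37 of Ank2 (36 of 179), the long neuronal exon of ankyrin-B. Of the scaffold exons with a site, 12 of 34 (35.3%) were above the overall share. Over all long exons of the scaffold genes 24.1% (22.2 to 26.2%) of DRACH adenosines were called, against 15.95% over all genes.

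The genes of genome maintenance and proliferation had the lowest called share of the 4 lists, although the share of genes with a site was above that over all genes. Of 13 genes with a long internal exon 10 had a site (76.9%), and 120 of 1260 DRACH adenosines were called, or 9.52% (8.02 to 11.3%), with 31 of the 120 in both libraries. The highest numbers were those of exon 10 of Bod1l (21 of 152), exon 7 of Casp8ap2 (16 of 77), exon 30 of Rif1 (16 of 83) and exon 12 of Trp53bp1 (11 of 41), and 2 of 19 exons (10.5%) were above the overall share. Brca1, Palb2 and Kif18a had such exons with no called site, and over all long exons of the list 8.04% (6.77 to 9.53%) of DRACH adenosines were called. Many of these genes are transcribed mainly in dividing cells, and in tissue samples fewer such cells and less methylation per transcript cannot be told apart.

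The sites were shared between the tissues more often than the DRACH sites of other exon classes. Both libraries listed 6966 of the 13742 sites, or 50.7% (49.9 to 51.5%), while 920 were listed in the cerebellum only and 5856 in the cerebrum only. The shared sites were 88.3% of the cerebellum's sites and 54.3% of the cerebrum's. The share in both libraries was 44.8% (44.0 to 45.7%) in the coding part of last exons, 44.4% in 3′ UTRs of last exons and 24.7% (23.3 to 26.1%) in short internal coding exons. In the 1658 transcripts with both kinds of internal exon it was 52.4% for long and 26.8% for short internal exons, and 50.3% (48.3 to 52.2%) for coding sites of the last exon, so that long internal and last exons differed little there.

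Sites near the exon ends were shared less often. Both libraries listed 30.4% (23.4 to 38.6%) of the 138 sites within 25 nt of an end, 41.98% of those within 100 nt and 51.6% of those farther inside. Of the cerebellum's sites within 25 nt, 66.7% were also listed in the cerebrum, against 88.9% of those over 100 nt from both ends. Frequently called 5-mers tended to be shared, with 57.7% of called GAACT in both libraries and 20.6% of called AAACC.

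Per exon, the cerebrum library listed more sites in most cases, as it did over the whole series with 188295 sites against 79355. Of the 412 exons with 10 or more sites, 362 had more in the cerebrum, 21 more in the cerebellum and 29 equal numbers. The exon with the largest excess in the cerebellum was exon 10 of the homeobox gene Zfhx4, which had 39 cerebellum sites and 22 cerebrum sites, with 20 in both. Exon 2 of the same gene had 25 and 20. Exon 8 of its relative Zfhx3 had 21 and 15, exon 15 had 35 and 30, and exon 2 of the heparan sulfate sulfotransferase gene Ndst4 had 11 and 4. With 1 library per tissue and unknown depth, expression, methylation and coverage cannot be told apart in these differences.

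**Figure D5:**
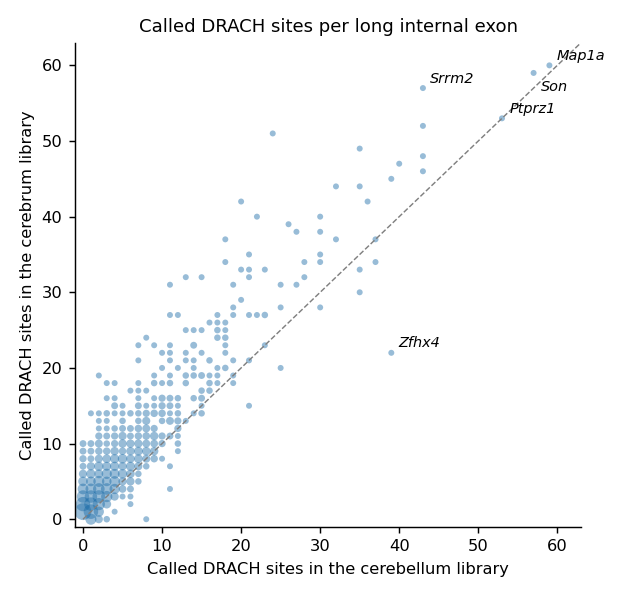
Called DRACH sites per long internal exon in the cerebellum library (horizontal) and the cerebrum library (vertical). Each point is a pair of counts, its area grows with the number of exons at that pair, and the dashed line marks equal counts. Most points lie above the line, while exon 10 of Zfhx4 lies below it at 39 and 22 sites.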

How the data were processed

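GLORI sites of 2 samples (1 cerebellum, 1 cerebrum) were used. The authors mapped reads to mm10 and to a PWK version of it, called sites with GLORI-tools and kept those above a minimum methylation rate and read count. The deposited files hold positions in GRCm38 (mm10) coordinates and no values per site. The authors' annotation release differs from the GENCODE M21 annotation used here.

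From the positions, DRACH adenosines of 40842 eligible transcripts (20718 genes) were listed from the genome and marked as called or uncalled in each library. An adenosine covered by several transcripts was assigned to the longest. Exon ends are counted from 1 at the terminal base. Shares have 95% Wilson intervals, and ratios have 95% intervals on the log scale. Expected numbers spread the called sites of each exon evenly over its DRACH adenosines. Unpaired probabilities were computed with ViennaRNA 2.7.2 on windows of the exon with 50 nt on each side, and tables with pandas 2.3.3 and numpy 2.4.6. The functions were tested on simulated data.

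Named exons were the 12 with most sites, the 6 with the highest called share (20 or more DRACH adenosines), the 6 with the lowest (30 or more), the 5 longest, and the 4 with most sites in each of 4 gene lists. Exons with more sites in the cerebellum were named after their values were seen, as was the run in Son. The exons, lists and comparisons were chosen with earlier results of these data known. No p-value was computed, since each tissue had 1 library. Alternatives changed the exon length, the transcript, the library, the uncalled set, the end window and the weight of exons.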

Additional observations from a re-analysis of the deposited data

Results flagged for a closer look

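Called adenosines outside DRACH were also present in the same exons, which is a signal that the comparisons above did not use. There were 4184 of them among 565182 adenosines (0.740%, 95% Wilson interval 0.718 to 0.763%), with 19.9% listed in both libraries against 50.7% of the DRACH sites. The 5-mers called most often were GTACT (28.8% of 1122), GGATT (18.7% of 1517) and GGACG (15.6% of 1189), each 1 base away from DRACH. Near-DRACH adenosines with G as the fifth base were called in 3.35% of cases within 100 nt of an exon end and in 9.19% farther inside, and those with a pyrimidine as the second base in 1.198% and 2.96%. The remaining adenosines, more than 1 base away from DRACH or changed elsewhere, were called in 0.362% (0.324 to 0.405%) near the ends and 0.371% (0.353 to 0.391%) inside, and 5.90% of these calls were in both libraries. Control samples were not analysed here, so the level without methylation is not known. The 5-mers were read from GRCm38 only, although the animal also carried PWK alleles and the authors also mapped to a PWK genome. Whether any of these adenosines was DRACH on the PWK allele was not checked. Nor was it checked whether each uncalled DRACH adenosine kept the motif on that allele.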

How the results depend on the processing

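Depth and methylation rates are unknown, there is 1 library per tissue, and all intervals cover counting error only, so the limits below concern the choices of exons, transcripts and adenosines. Every alternative kept the near-end ratio below 1, the GGACT ratio above 1 and the unpaired probability difference below 0. The near-end ratio was 0.246, 0.662 and 0.793 with end windows of 50, 150 and 200 nt, 0.399 for sites in both libraries and 0.422 with 5-mer weights, and between 0.455 and 0.481 under the other 11 alternatives. The called share was 19.3% in the cerebellum, 25.8% in the cerebrum, 21.0% for sites in both libraries, 31.8% in exons with 3 or more sites, 28.3% as a mean over exons and 25.3% over all long exons of transcripts with a called 3′ UTR site, an alternative added after the data were seen. The share in both libraries was 52.0% in exons of 800 nt or longer, 52.4% in exons with 3 or more sites and 41.2% as a mean over exons. The GGACT ratio was 2.83 in the cerebellum, 4.19 for sites in both libraries, 3.85 in exons with 3 or more sites and 3.54 as a mean over exons. The ratio at the second codon base was 1.04 with 5-mer weights. The unpaired probability difference was -0.102 for sites in both libraries and -0.0457 with 5-mer weights. The cause of these shifts was not tested. In all, 54 of 75 alternative values stayed within the 95% interval of the main value. Folding was computed for adenosines of exons under the main transcript choice, so the alternatives on transcripts used the adenosines that had a value.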

Other observations

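Repeated coding sequence held fewer calls than the 27.1% over all DRACH adenosines of exons with a site. Among these adenosines, 211 had a surrounding 25-nt sequence that occurred more than once in the set, and 15 of these were called (7.11%, 95% Wilson interval 4.36 to 11.4%), 9 of them in Son. Of 64 such adenosines in Mki67, the gene of the proliferation marker Ki-67 with its tandem repeats, 0 were called (interval up to 5.66%), as were 0 of 40 in Tro. The 258 DRACH adenosines of exon 12 of Mki67 as a whole had 10 calls. With 51-nt sequences 2 of 74 were called. The repeated adenosines came in large part from Mki67 and Tro. As a set they were not compared with the other DRACH adenosines of their own exons. Whether reads from such copies could be placed uniquely was not tested.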
